A study of Mus musculus with 6 samples.

Results

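The genes described here are 8 noncoding hosts of small nucleolar RNAs (snoRNAs): Gas5, Snhg1, Snhg3, Snhg4, Snhg5, Snhg6, Snhg8 and Snhg12. They were taken by symbol from the deposited gene table, where they fill 9 of 55385 rows because Snhg4 has 2. RNA came from mouse Neuro2A cells (N2A), an established neuroblastoma line labelled as neuroblasts of the brain. The cells received 100 nM of a small interfering RNA, either si-NC (n = 3 libraries) or si-circCpsf6 (n = 3), which is directed at the circular RNA circCpsf6. The time after transfection and the level of the circle are not analysed here. Whether replicates came from different cultures is not stated, and a p-value therefore reflects library-to-library spread, possibly technical.

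SnoRNAs guide chemical modification of ribosomal and other RNAs. In mammals most of them lie in introns and are cut from the excised, debranched intron while the flanking exons are spliced together. Apart from the Snhg4 row that runs into Matr3, annotated as coding, the spliced exons of the hosts described here encode no long protein. Short open frames near the 5′ end bring ribosomes onto these RNAs, and for Gas5 and several relatives the spliced RNA is known to be removed by nonsense-mediated decay, a pathway that degrades translated RNAs with exon junctions beyond the stop codon. Many hosts also start with a 5′ terminal oligopyrimidine (TOP) tract, the run of C and T that places translation under the growth regulator mTORC1. Gas5 was named for its accumulation in growth-arrested cells.

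The start regions show the C and T runs of these genes base by base. RefSeq sequences (GRCm38.p6) matched 6 of the 8 symbols, with 2 starts for Gas5, and 50 bases are shown for the downstream Gas5 start and the start of each of the others, 20 before the annotated start and 30 from it. Capitals mark the longest run of C or T that touches the 10 bases on either side of the start.
Gas5, chr1:161035146-161035195, plus strand: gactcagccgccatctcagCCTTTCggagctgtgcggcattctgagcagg
Snhg1, chr19:8723467-8723516, plus strand: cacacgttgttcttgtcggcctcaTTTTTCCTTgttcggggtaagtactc
Snhg12, chr4:132308658-132308707, plus strand: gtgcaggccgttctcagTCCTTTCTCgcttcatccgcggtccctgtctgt
Snhg5, chr9:88522868-88522917, minus strand: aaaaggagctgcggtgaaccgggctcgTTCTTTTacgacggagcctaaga
Snhg8, chr3:123508307-123508356, minus strand: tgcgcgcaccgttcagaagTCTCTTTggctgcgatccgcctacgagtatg
Snhg3, chr4:132353657-132353706, minus strand: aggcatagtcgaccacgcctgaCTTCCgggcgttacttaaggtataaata
The run was 9 bases long in Snhg1 and Snhg12, a length reached by 9.5% of 32851 RefSeq promoters. It was 7 bases in Snhg5 and Snhg8 (19.7% of promoters reach this), 6 in Gas5 (29.2%) and 5 in Snhg3 (44.9%). At the upstream Gas5 start it was 3 bases (82.9%). Of the runs shown, those of Gas5, Snhg8 and Snhg12 covered the annotated start. The others began after it, at base 5 in Snhg1, base 8 in Snhg5 and base 3 in Snhg3, with the start as base 1. An annotated start can miss the true first base, so the runs describe the sequence and not where transcription began.

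The spliced models carry short first frames. In each gene the annotated model with most exons, intron-retaining models left out, was read from GENCODE M21, and the first ATG followed by an in-frame stop was located. The frame held 23 codons in Gas5, 40 in Snhg1, 42 in Snhg3, 36 in Snhg5, 53 in Snhg6 and 54 in Snhg12. In both Snhg4 rows it held 15 codons. In Snhg8 it held 1 codon, an ATG with the stop TAG directly behind it. The frames of Gas5 and Snhg5 are shown because they are short enough to read whole and belong to the genes with the lower and higher log2 fold changes described below, with the start and stop codons in capitals.
Gas5 (spliced model of 12 exons): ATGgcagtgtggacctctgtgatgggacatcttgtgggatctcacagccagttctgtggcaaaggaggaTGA
Snhg5 (spliced model of 6 exons): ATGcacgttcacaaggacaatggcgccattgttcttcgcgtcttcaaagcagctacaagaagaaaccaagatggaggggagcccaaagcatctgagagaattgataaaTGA
More than 50 bases past the stop, 7 exon junctions followed in Gas5, 5 in Snhg1, 3 in Snhg12, 2 in Snhg5 and Snhg8, 1 in Snhg3 and Snhg6, 11 in the Snhg4 row that runs into Matr3 and 0 in the noncoding Snhg4 row. At least 1 such junction also followed the first frame in 326 of 415 tested long noncoding RNA rows with more than 1 exon (78.6%), so the layout is common to the class.

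No member passed the test between si-circCpsf6 and si-NC. Sorted by their own values, the rows showed separate patterns. In Gas5, Snhg3 and both Snhg4 rows every si-circCpsf6 library read lower than every si-NC library, as in 14.0% of all tested genes. In Snhg1, Snhg5, Snhg6, Snhg8 and Snhg12 the groups overlapped, and si-circCpsf6 replicate 1 was the highest of the 6 libraries. Values are FPKM, fragments scaled to transcript length and to the mapped fragments of a library. The test was limma on log2(FPKM + 1) over the 12974 genes whose mean reached 1 FPKM. A call needed a Benjamini-Hochberg adjusted p under 0.05, which 1.69% of those genes reached (0.902% higher and 0.786% lower in si-circCpsf6). All 9 rows passed the filter on low values. In RNA from whole cultures, fewer cells making an RNA and less of it per cell cannot be told apart.

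Gas5 (ENSMUSG00000053332, chromosome 1, 161034422 to 161038539, plus strand, GRCm38) holds 10 annotated snoRNA rows, the most among the 8 genes. It read 8.46, 7.33 and 9.41 FPKM in the si-NC libraries and 4.0, 6.16 and 4.31 FPKM in the si-circCpsf6 libraries. The highest si-circCpsf6 value lay below the lowest si-NC value. The means were 8.4 ± 1.04 and 4.82 ± 1.17 FPKM (SD, n = 3 each), and the log2 fold change ± SE was -0.70 ± 0.18 (95% interval -1.12 to -0.29). It did not pass the test over all genes (limma adjusted p = 0.0903). With any 1 library left out the log2 fold change stayed between -0.86 and -0.60. Zbtb37, a zinc finger gene that starts 427 bases away on the opposite strand and overlaps the 5′ end of Gas5, read 2.08, 2.32 and 1.9 FPKM in si-NC and 3.2, 2.42 and 3.36 FPKM in si-circCpsf6 (log2 fold change 0.36, limma adjusted p = 0.257). Its groups did not overlap either, with si-circCpsf6 higher, as in 12.8% of all tested genes. How strand was treated is unknown here, so reads of Gas5 and Zbtb37 cannot be told apart where they overlap.

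Snhg4, the host of the H/ACA snoRNA Snora74a, lies upstream of Matr3 on chromosome 18 and has 2 rows. The noncoding row (ENSMUSG00000117869, 35553371 to 35558316) read 3.14, 1.85 and 2.25 FPKM in si-NC and 1.11, 1.06 and 1.06 FPKM in si-circCpsf6. Its log2 fold change ± SE was -0.70 ± 0.18 (limma adjusted p = 0.0961). At this low level the size depends on the pseudocount, and with 0.1 in place of 1 it was -1.06. The authors' deposited table gives -1.16. The second row (ENSMUSG00000117694, 35553404 to 35587708) holds models that start with Snhg4 exons and run on into Matr3, some of them annotated as coding. It read 4.73, 4.57 and 3.84 FPKM in si-NC and 1.92, 1.6 and 2.92 FPKM in si-circCpsf6, a log2 fold change ± SE of -0.79 ± 0.19 (limma adjusted p = 0.0788). Both rows kept their groups apart, but their starts are 33 bases apart and they share exons, so they are not separate measurements and their reads could be shared. Matr3 itself, a nuclear matrix protein gene that the second row overlaps, read 14.85 to 19.79 FPKM in si-NC and 17.23 to 19.07 FPKM in si-circCpsf6 (log2 fold change 0.09, limma adjusted p = 0.754). In the authors' deposited table the noncoding row has a q-value of 0.04 and the second row 0.11, and both are marked significant there. A q-value under 0.05 with a lower level in si-circCpsf6 is given in that table to 2.29% of the genes tested here, and a mark of significance with a lower level to 1.9%.

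Snhg3 (ENSMUSG00000085241, chromosome 4, 132348014 to 132353686, minus strand), host of Snora73a and Snora73b, read 4.05, 4.53 and 5.13 FPKM in si-NC. In si-circCpsf6 it read 2.78, 3.06 and 3.29 FPKM, with no overlap between the groups. The log2 fold change ± SE was -0.46 ± 0.14 (limma adjusted p = 0.133). Rcc1, which encodes the exchange factor for the GTPase Ran, starts 81 bases from Snhg3 on the same strand and shares its 5′ region. It read 18.47, 10.81 and 17.22 FPKM in si-NC and 6.37, 9.74 and 11.44 FPKM in si-circCpsf6, with a single overlap between the groups (log2 fold change -0.70, limma adjusted p = 0.188). Gm17300, a noncoding gene on the opposite strand within Snhg3, read 3.08, 3.71 and 3.76 FPKM in si-NC and 1.22, 2.41 and 1.28 FPKM in si-circCpsf6 (log2 fold change -0.80, limma adjusted p = 0.0913). The sources used here do not say how strand was treated, so reads of these 3 genes cannot be told apart where they overlap.

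**Figure D1:**
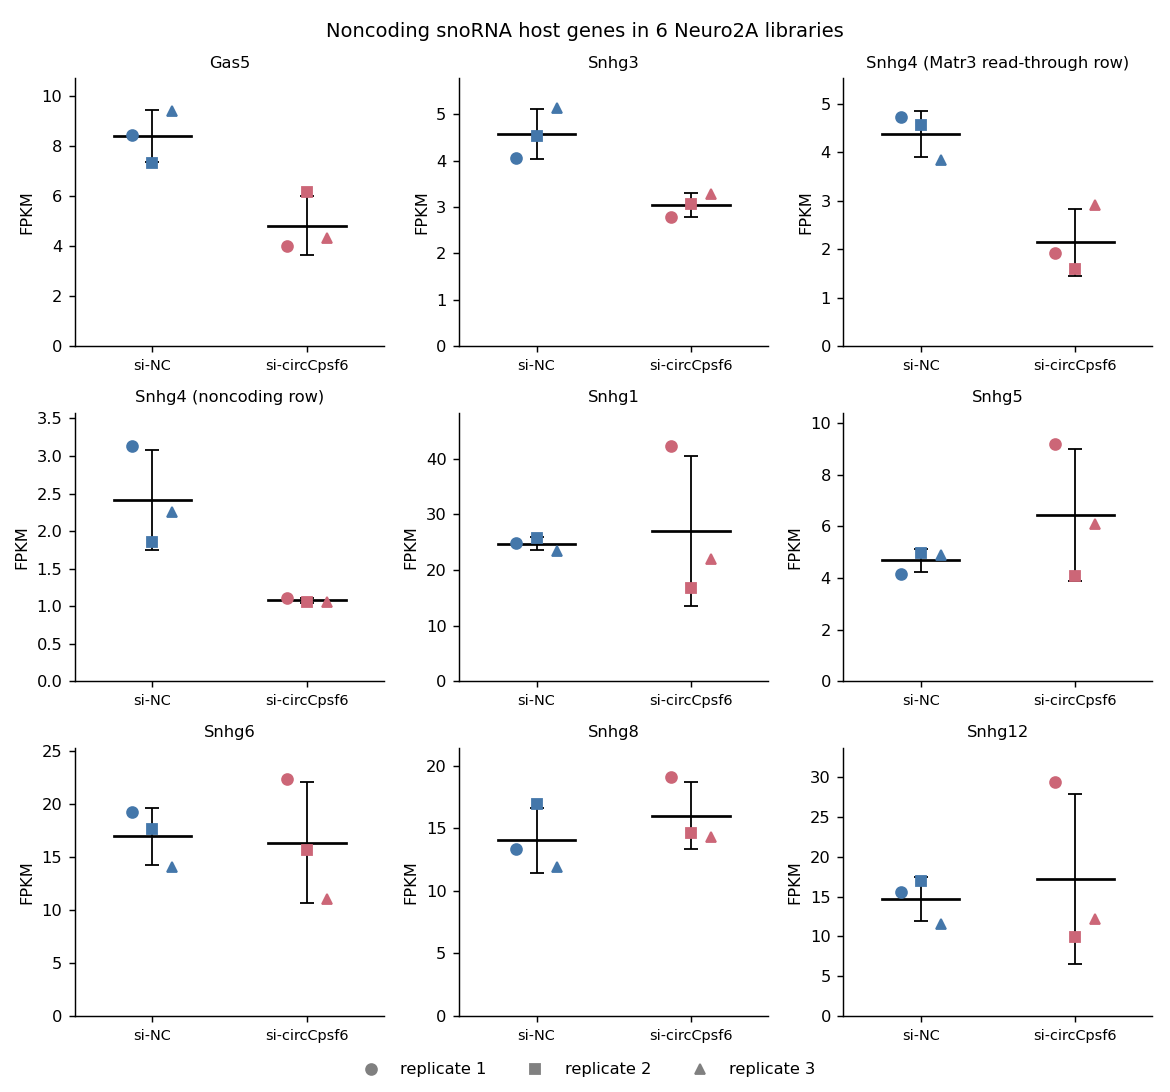
FPKM of the 9 rows of the 8 host genes in each library, on linear axes from 0. Blue symbols are si-NC and red symbols si-circCpsf6, the symbol shape is the replicate number, and bars are the mean ± SD (n = 3). Gas5, Snhg3 and both Snhg4 rows have all red symbols below all blue ones, while si-circCpsf6 replicate 1 is the top symbol in the other 5 panels, reaching 42.37 FPKM in Snhg1.

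Groups that did not overlap with si-circCpsf6 lower were found in 4 of the 9 rows, which stand for 3 of the 8 genes, and in 14.0% of all tested genes. No member was apart in the higher direction (12.8% of all tested genes, 26.9% in either). An unadjusted limma p under 0.05 was reached by the 4 lower rows, against 10.1% of all tested genes lower, 10.2% higher and 20.3% in either direction. The median log2 fold change over the 9 rows was -0.09, against -0.02 over all tested genes and -0.01 over 492 tested long noncoding RNA rows. No exact permutation test was made for single members, since with 3 libraries a group its smallest p is 0.1.

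Snhg1 (ENSMUSG00000108414, chromosome 19, 8723475 to 8726443, plus strand), a host of C/D snoRNAs of the U22 cluster, was the most abundant member. It read 24.93, 25.79 and 23.5 FPKM in si-NC and 42.37, 16.74 and 21.93 FPKM in si-circCpsf6. The si-circCpsf6 libraries therefore lay on both sides of the narrow si-NC range, and the SD was 13.6 FPKM against 1.16 FPKM. Its log2 fold change was 0.02 (95% interval -0.68 to 0.72, limma adjusted p = 0.983), an interval that takes in both directions. Without si-circCpsf6 replicate 1 it was -0.35, and both remaining si-circCpsf6 values lay below all si-NC values (limma adjusted p = 0.252). Slc3a2, the heavy chain of amino acid transporters, starts 106 bases from Snhg1 on the opposite strand. It read 68.55 to 96.88 FPKM in si-NC and 105.61 to 133.65 FPKM in si-circCpsf6 (log2 fold change 0.58, limma adjusted p = 0.135), so the gene pair with a shared start region had different orders among the libraries.

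Snhg12 (ENSMUSG00000086290, chromosome 4, 132308623 to 132311024, plus strand), a host mainly of H/ACA snoRNAs, read 15.61, 16.91 and 11.56 FPKM in si-NC and 29.45, 9.96 and 12.25 FPKM in si-circCpsf6. As in Snhg1, replicate 1 of si-circCpsf6 was the highest library and replicate 2 the lowest. The log2 fold change was 0.08 (95% interval -0.77 to 0.93, limma adjusted p = 0.93), and -0.36 without si-circCpsf6 replicate 1.

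Snhg5 (ENSMUSG00000097195, chromosome 9, 88521050 to 88522929, minus strand), host of Snord50a and Snord50b, read 4.17, 4.97 and 4.9 FPKM in si-NC and 9.17, 4.08 and 6.1 FPKM in si-circCpsf6. Its log2 fold change was the highest of the members at 0.34 (95% interval -0.23 to 0.91, limma adjusted p = 0.491). It was 0.08 without si-circCpsf6 replicate 1 and 0.58 without replicate 2. The same 2 libraries thus set the size of the value in Snhg5 as in Snhg1 and Snhg12.

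Snhg6 (ENSMUSG00000098234, chromosome 1, 9941959 to 9944118, minus strand), host of Snord87, read 19.27, 17.63 and 14.02 FPKM in si-NC and 22.39, 15.69 and 11.04 FPKM in si-circCpsf6. The si-circCpsf6 values enclosed the si-NC range (log2 fold change -0.09, 95% interval -0.67 to 0.49, limma adjusted p = 0.874). Snhg8 (ENSMUSG00000104960, chromosome 3, 123507552 to 123508404, minus strand), host of Snora24, read 13.31, 16.94 and 11.91 FPKM in si-NC and 19.06, 14.63 and 14.33 FPKM in si-circCpsf6. Its groups overlapped too (log2 fold change 0.18, 95% interval -0.23 to 0.59, limma adjusted p = 0.612). The log2 fold change of Snhg8 was 0.05 without si-circCpsf6 replicate 1. Leaving out si-NC replicate 3 gave 0.07, and leaving out si-NC replicate 2 gave 0.31.

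**Figure D2:**
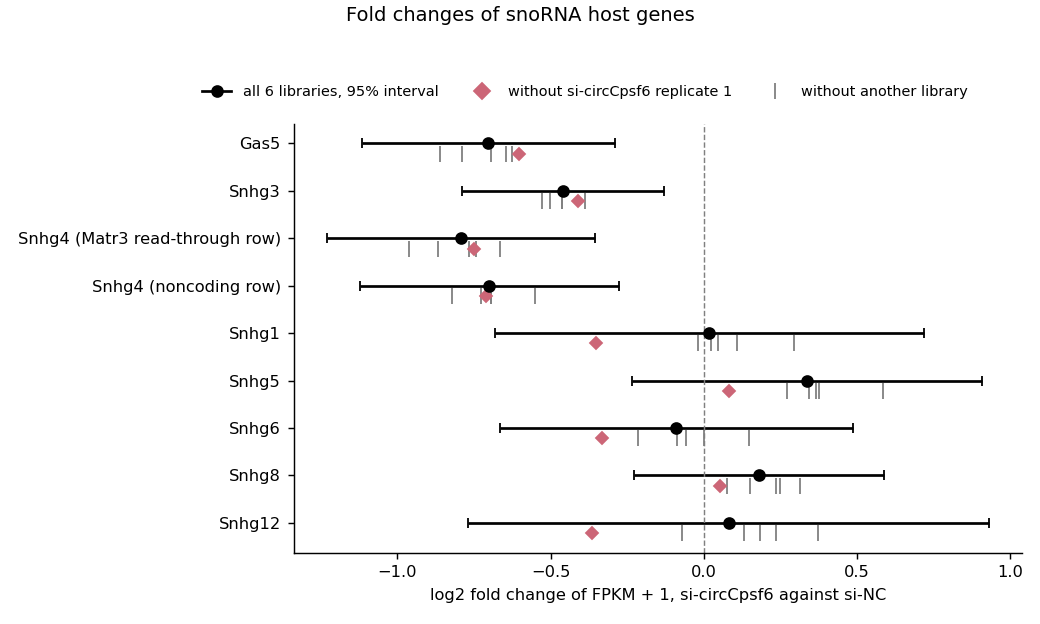
Log2 fold change of FPKM + 1 in si-circCpsf6 against si-NC for the 9 rows, with black points and 95% intervals from all 6 libraries. Red diamonds leave out si-circCpsf6 replicate 1 and grey ticks each other library in turn. Gas5, Snhg3 and both Snhg4 rows stay below 0 throughout, while Snhg1 moves from 0.02 to -0.35 and Snhg12 from 0.08 to -0.36 at the diamonds.

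High values in si-circCpsf6 replicate 1 were also counted in other snoRNA hosts. That library was the highest of 6 in 5 of the 9 member rows and 7 of 10 tested rows of other noncoding hosts. It was also the highest in 20 of 37 protein-coding hosts, many of those 20 being ribosomal protein genes. For comparison, it was the highest in 20.8% of all tested genes and 24.8% of tested long noncoding RNA rows. In 10 of the 37 protein-coding hosts (27.0%) it was the lowest, against 28.8% of all tested genes. It was the highest in 1 of 18 snoRNP proteins and assembly factors and in 1 of 13 genes of mTORC1 and TOP control. In Gas5 the same library had the lowest value. With the members set aside, the 5 tested genes whose log2(FPKM + 1) over the 6 libraries was most like the mean of the members, each centred first, were Rpl10 (Pearson r = 0.996), Stx7 (0.989), Rpl22 (0.987), Cct2 (0.986) and Gm6477 (0.985). Rpl10 and Rpl22 encode proteins of the large ribosomal subunit, and Rpl10 is itself a snoRNA host. Rpl10 read 200.74, 196.51 and 187.27 FPKM in si-NC and 204.03, 132.93 and 143.46 FPKM in si-circCpsf6. These r values are descriptions over 6 libraries that the genes share, and they were picked as the highest over all tested genes. The mean also blends member rows with the separate patterns described above, so it need not resemble any single member.

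By level, Snhg1 led in si-NC at 24.7 ± 1.16 FPKM, above 86.1% of tested genes when all 6 libraries are averaged. Snhg6 at 17.0 ± 2.69, Snhg12 at 14.7 ± 2.79 and Snhg8 at 14.1 ± 2.6 FPKM followed with overlapping ranges. Gas5 came next, apart from its neighbours in that order. Snhg5 at 4.68 ± 0.44, Snhg3 at 4.57 ± 0.54 and the second Snhg4 row at 4.38 ± 0.47 FPKM overlapped, and the noncoding Snhg4 row was lowest at 2.41 ± 0.66 FPKM (mean ± SD, n = 3). In si-circCpsf6 the first 4 genes overlapped in sequence from Snhg1 at 27.0 ± 13.6 to Snhg8 at 16.01 ± 2.65 FPKM. Gas5 then ranked below Snhg5 (6.45 ± 2.56 FPKM), with overlapping ranges. Gas5, Snhg3 and Snhg4, whose groups did not overlap, thus stood with Snhg5 in the lower part of the order.

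The annotation places 31 snoRNA rows on the same strand inside the members, every one within an intron of the model used. Rows are not all separate snoRNAs, since Snord80 and Snora16a each fill more than 1 row at nearly the same position. The rows Mir1949 and Gm50452 (Mir5117 in the annotation) carry microRNA names. Of the 31 rows, 12 reached a mean of 1 FPKM and none passed the test (limma). The remaining 19 stayed at or below 2.95 FPKM in every library. SnoRNAs are shorter than typical library fragments and the counts behind a value are unknown, so single high values carry little weight. The libraries are titled mRNA-Seq, and released snoRNAs and unspliced host RNA cannot be told apart in these values. Sequences from GENCODE M21 are shown for 3 rows of Gas5 and 1 of Snhg1 whose values are described next. Capitals mark the box C motif TGATGA in the first 20 bases and the box D motif CTGA in the last 15, where those letters were found on the snoRNA strand.
Gm25789, in Gas5, chr1:161038308-161038383, plus strand: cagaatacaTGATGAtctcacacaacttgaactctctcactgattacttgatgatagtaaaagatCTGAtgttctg
Gm22357, in Gas5, chr1:161036057-161036139, plus strand: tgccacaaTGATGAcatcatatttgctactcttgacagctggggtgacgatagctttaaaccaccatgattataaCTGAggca
Gm22489, in Gas5, chr1:161035850-161035911, plus strand: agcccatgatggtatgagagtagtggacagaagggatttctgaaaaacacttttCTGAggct
Gm24452, in Snhg1, chr19:8724531-8724602, plus strand: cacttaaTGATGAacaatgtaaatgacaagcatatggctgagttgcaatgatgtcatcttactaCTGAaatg

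Gm25789, in the Gas5 intron farthest from the start, was the only tested Gas5 snoRNA whose groups did not overlap. Of all tested genes 14.0% were apart in the same, lower direction. Gm25789 read 66.88, 61.22 and 74.69 FPKM in si-NC and 13.12, 40.42 and 39.99 FPKM in si-circCpsf6 (log2 fold change ± SE -1.25 ± 0.39, limma adjusted p = 0.142). Gm22357 read 21.93, 33.74 and 26.88 FPKM in si-NC and 12.1, 25.57 and 18.41 FPKM in si-circCpsf6 (log2 fold change -0.57, limma adjusted p = 0.289). Both were lowest in si-circCpsf6 replicate 1, the library in which the Gas5 row was lowest. That library was the lowest in 28.8% of all tested genes. The Gas5 row includes intron-retaining models, so it and the snoRNA rows could share reads and need not be separate measurements. Gm22489, from the same transcript, read 6.3, 4.65 and 11.32 FPKM in si-NC and 9.29, 12.68 and 7.91 FPKM in si-circCpsf6 (log2 fold change 0.43, limma adjusted p = 0.461). Gm23212 passed the filter through a single library, at 12.58 FPKM in si-NC replicate 3 and 0.03 to 0.19 FPKM in the other 5, so its direction is no result. Snord47 showed how uneven such rows can be, at 104.69 FPKM in si-NC replicate 1, 62.79 FPKM in si-circCpsf6 replicate 3 and at most 0.12 FPKM in the other libraries. The tested row of Snord80 read 8.12, 2.94 and 6.88 FPKM in si-NC and 0.37, 4.02 and 3.1 FPKM in si-circCpsf6 (log2 fold change -1.11, limma adjusted p = 0.282). Another Snord80 row, whose span covers the tested one, read at most 0.01 FPKM in every library. How reads were assigned between these rows is unknown here. Gm50452 read 0.23, 3.65 and 4.78 FPKM in si-NC and 0.14, 3.2 and 0.21 FPKM in si-circCpsf6. Of the 7 tested Gas5 snoRNA rows 6 were below 0, Gm23212 and Snord47 among them.

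Outside Gas5 the tested snoRNAs were few. Gm24452 of Snhg1 read 10.96, 8.93 and 11.72 FPKM in si-NC and 7.03, 5.31 and 0.17 FPKM in si-circCpsf6 (log2 fold change -1.56, limma adjusted p = 0.236). Its groups did not overlap, with si-circCpsf6 lower, as in 14.0% of all tested genes. Gm25894 of the same host read 3.49 to 7.28 FPKM in si-NC and 4.6 to 7.09 FPKM in si-circCpsf6. Snord87 of Snhg6 read 1.74 to 4.06 and 2.91 to 4.11 FPKM, and Snora24 of Snhg8 read 0.09 to 2.29 and 0.94 to 2.16 FPKM. Snora44 of Snhg12 read 3.71 to 4.57 FPKM in si-NC and 0.06, 2.59 and 4.28 FPKM in si-circCpsf6.

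**Figure D3:**
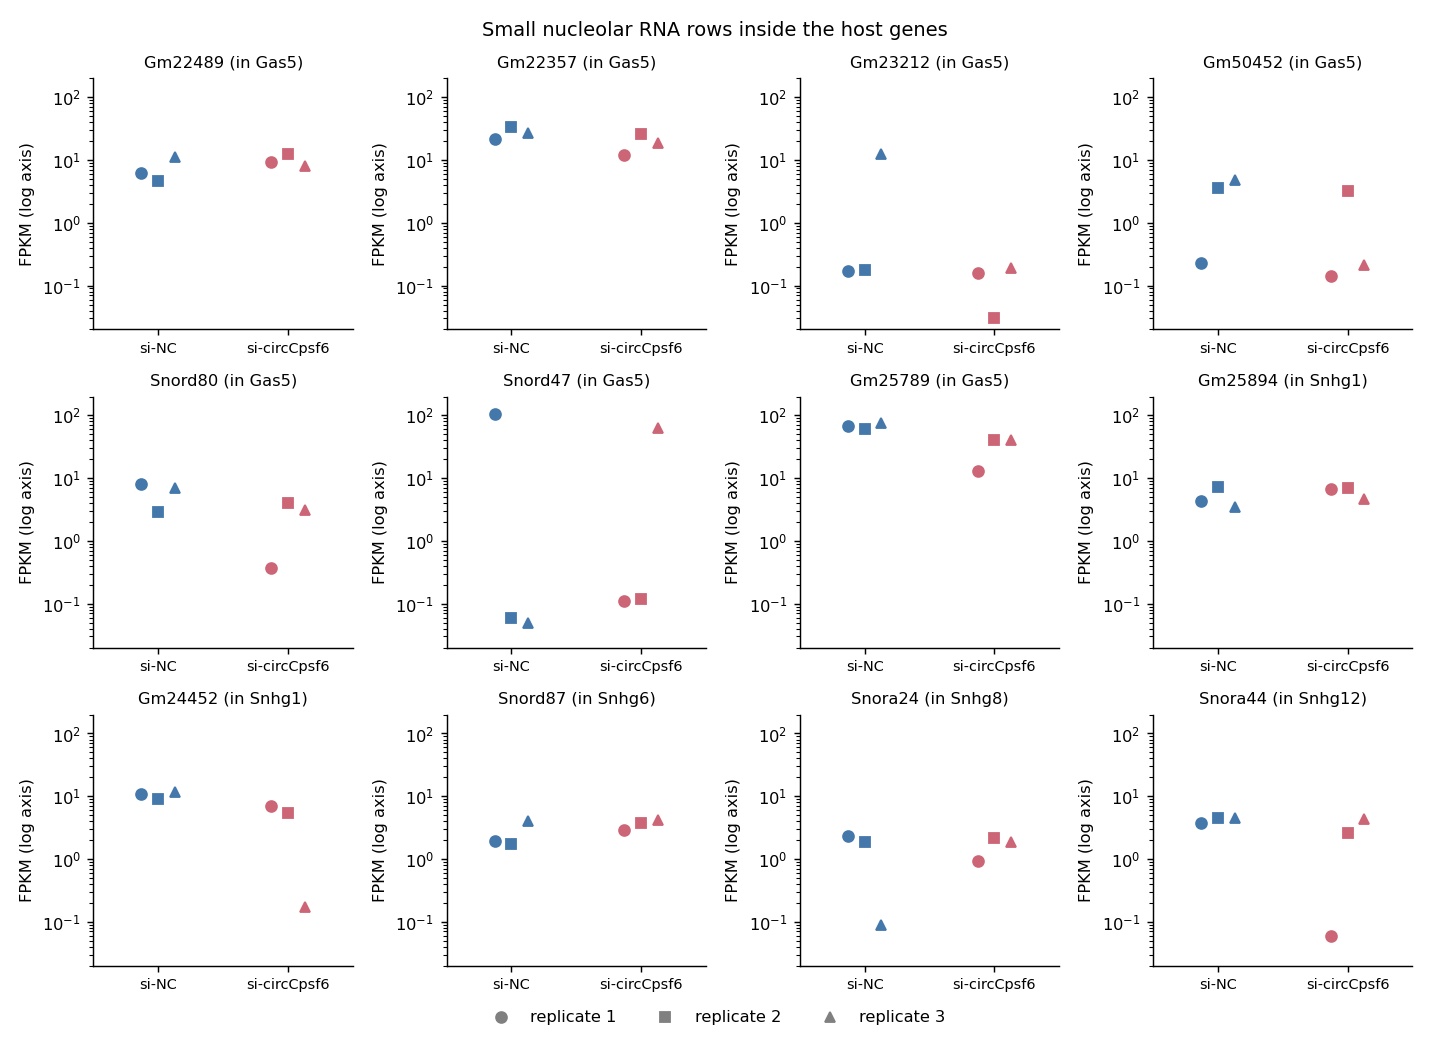
FPKM on a log axis of the 12 snoRNA rows inside the host genes that reached a mean of 1 FPKM, by library, with si-NC in blue, si-circCpsf6 in red and the symbol shape for the replicate number. Gm25789 in Gas5 and Gm24452 in Snhg1 have all red symbols below all blue ones, and Snord47 is near 0.1 FPKM in 4 libraries and above 60 FPKM in the other 2.

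Genes whose proteins assemble and release snoRNAs mostly had log2 fold changes below 0. In the snoRNP list 17 of 18 tested genes had a log2 fold change below 0 (median -0.31), and 6 had groups apart in the lower direction. None passed the test. Replicate 1 of si-circCpsf6 was the lowest library in 16 of these 18 genes, against 28.8% of all tested genes. Without it 16 were below 0, the median was -0.14 and 6 were apart in the lower direction (18.9% of all tested genes). Pih1d1, an assembly factor picked for its values, went the other way, at 12.72, 11.42 and 13.16 FPKM in si-NC and 14.65, 16.18 and 21.96 FPKM in si-circCpsf6 (log2 fold change 0.45, limma adjusted p = 0.192). Nop58, a core protein of C/D particles, read 14.36, 11.39 and 14.11 FPKM in si-NC and 6.04, 9.1 and 9.96 FPKM in si-circCpsf6 (log2 fold change -0.63, limma adjusted p = 0.135). Nolc1, a chaperone of snoRNPs, read 42.51, 31.26 and 39.1 FPKM in si-NC and 18.51, 27.21 and 29.26 FPKM in si-circCpsf6 (log2 fold change -0.59, limma adjusted p = 0.168). In the list of intron debranching and exosome genes 13 of 14 tested genes were below 0 (median -0.28) and 8 were apart in the lower direction, with none past the test. Replicate 1 of si-circCpsf6 was the lowest library in 11 of these 14 genes. Without it 11 were below 0, the median was -0.20 and 8 were apart in the lower direction. What that library contributes to either list was not tested further. Dbr1, the enzyme that opens intron lariats and so frees intronic snoRNAs, read 9.03, 8.0 and 9.34 FPKM in si-NC and 3.2, 5.55 and 3.98 FPKM in si-circCpsf6 (log2 fold change -0.92, limma adjusted p = 0.0558). Exosc3, an exosome subunit, read 8.99 to 13.34 and 6.94 to 8.82 FPKM (log2 fold change -0.49, limma adjusted p = 0.169). For comparison, 52.8% of all tested genes were below 0 and 14.0% were apart in the lower direction.

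The other hosts had values on both sides of 0. Of 10 tested rows of other noncoding hosts 7 were above 0 (median 0.07), none passed and none was apart. Snhg10 read 3.03, 2.84 and 1.75 FPKM in si-NC and 1.33, 1.16 and 1.79 FPKM in si-circCpsf6, and Snhg17 read 7.33 to 8.23 and 6.59 to 7.75 FPKM. Zfas1, a TOP host outside the naming rule and picked for its values, read 57.91, 50.16 and 47.66 FPKM in si-NC and 83.38, 14.97 and 36.72 FPKM in si-circCpsf6, the same order within si-circCpsf6 as in Snhg1. Of 37 protein-coding hosts 24 were below 0 (median -0.06) and none passed. Ppan, a ribosome assembly factor, read 22.71 to 24.09 and 11.82 to 18.29 FPKM, and the mitochondrial chaperone gene Hspa9 read 107.55 to 126.04 and 142.9 to 206.19 FPKM, in si-NC and si-circCpsf6.

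Factors of nonsense-mediated decay had 10 of 17 tested genes below 0 (median -0.09) and none past the test. Smg6, the endonuclease of the pathway, read 6.74, 6.78 and 6.83 FPKM in si-NC and 13.09, 9.64 and 10.01 FPKM in si-circCpsf6 (log2 fold change 0.60, limma adjusted p = 0.0826). Nbas read 3.82 to 5.09 and 5.69 to 6.24 FPKM. Among 8 tested genes listed as targets of the pathway, Smg5 and Upf2 being in both lists, 6 were above 0 (median 0.51) with none past the test. Of these Ddit3, a stress-induced transcription factor, read 35.6, 37.83 and 19.13 FPKM in si-NC and 62.85, 80.35 and 58.76 FPKM in si-circCpsf6 (limma adjusted p = 0.0757), and Gadd45a read 3.01 to 9.52 and 8.96 to 15.94 FPKM. In the list of mTORC1 and TOP control 9 of 13 tested genes were below 0 (median -0.22), and Deptor, an inhibitor of mTOR, was the gene that passed, rising from 3.69 ± 1.59 to 17.5 ± 1.94 FPKM (n = 3 each, limma adjusted p = 0.0282).

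**Figure D4:**
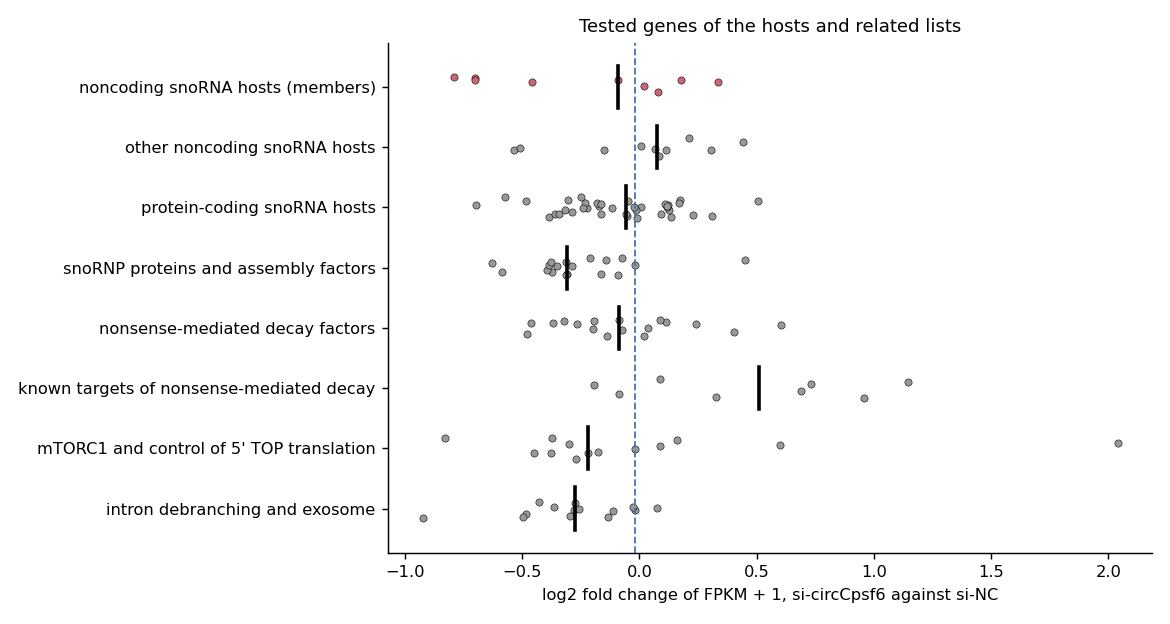
Log2 fold changes of tested genes in the members and 7 related gene lists, 1 point per row, with the list's median as a black bar and the median of all tested genes as a dashed line. The 4 lower member points lie between -0.79 and -0.46 and the other 5 between -0.09 and 0.34, and the snoRNP and debranching lists sit mostly left of the dashed line.

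The series as a whole bears on these values as follows. Between 12671 and 13080 genes reached 1 FPKM in a library. All 12 sympathetic neuroblast markers reached a mean of 1 FPKM. Their summed level was 2061 to 3148 FPKM in si-NC and 984 to 1457 FPKM in si-circCpsf6. The granule protein gene Chgb made up most of that sum in si-NC but not in si-circCpsf6 (means of 1632 and 426 FPKM, limma adjusted p = 0.065). Of the 12 markers 7 had a log2 fold change below 0 and 5 above. Chga, a related granule protein gene, was the one that passed and fell from 234 ± 13.0 to 110.04 ± 22.5 FPKM (n = 3 each, limma adjusted p = 0.0335), while Elavl4, a neuronal RNA-binding protein gene, had a log2 fold change of 0.66 (limma adjusted p = 0.181). None of 7 blood markers reached that mean (sums of 1.27 to 1.64 FPKM in si-NC and 0.63 to 2.61 FPKM in si-circCpsf6), and 1 of 7 glial markers did (3.29 to 4.05 and 1.36 to 3.04 FPKM). For fibroblast markers it was 1 of 7, with sums of 1.28 to 8.99 and 1.29 to 7.24 FPKM, and for endothelial markers 2 of 5, with sums of 2.89 to 3.6 and 1.82 to 4.29 FPKM. Their part in the values of the host genes was not tested.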

How the data were processed

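The authors deposited 1 table with a value per gene and library in FPKM, per the file headers. Per the file headers it also gives the authors' fold change (a ratio), log2 fold change, p-values and q-values. Which program, annotation and test made them is unknown here. Bowtie 0.12.2, mm8 and mm9 are named, with no role, by the submitters' processing notes. The kit named by the labels is one for small RNA, while the library titles read mRNA-Seq. Positions and transcript models came from GENCODE M21 (GRCm38), which held 55144 of 55385 table identifiers but 6 of the 28 Snhg5 transcripts listed in the table, so the lengths used by the authors may differ. M21 gives the 2 Snhg4 identifiers other names, and the table's symbol was kept.

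At most 33.1% of low values of genes with 1 short transcript were whole reads within 0.1 of a read, so counts were not recovered and depth is unknown.

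Groups and replicate numbers were read from the titles. Genes whose mean reached 1 FPKM were tested with limma 3.58.1 (R 4.3.3), on log2(FPKM + 1), with a trended prior and Benjamini-Hochberg adjustment over all 12974 genes. Low genes have understated fold changes on this scale. The fit was tested on simulated data. Named genes were the members, tested snoRNA rows inside them, genes starting within 5000 bases, the 5 genes most like the members' mean, and of each list up to 4 genes past the test or else the 2 with the smallest p. The members and lists were chosen with earlier results of these data known. Alternatives were quantile normalization, median centring, a filter at a mean of 5 FPKM or none, 0.1 as pseudocount, no trend, the replicate number as a block, the authors' q-values and leaving out each library. Sequences and figures used Python 3.11.15.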

Additional observations from a re-analysis of the deposited data

How the results depend on the processing

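Of all tested genes 117 were called higher and 102 lower. With no filter the counts were 4 and 9, with the replicate number as a block 6 and 5, and by the authors' deposited q-values 418 and 297. Leaving out 1 library gave 1 to 43 higher and 2 to 44 lower. No member was called higher under any of these settings, and none lower except 1 by the authors' deposited q-values, the noncoding Snhg4 row. The labels do not say that the replicate numbers pair libraries. Same-numbered libraries had correlations of 0.103, 0.129 and 0.084 between their deviations from the group means, and differently numbered ones -0.181 to 0.0781, so each library correlated best with its own number, which is a hint from the data and not the design. Directions turned in 3 members when a library was left out. Snhg1 was at -0.02 without si-NC replicate 3 and -0.35 without si-circCpsf6 replicate 1, and Snhg12 at -0.07 and -0.36 in those fits. Without si-circCpsf6 replicate 2 they were at 0.29 and 0.37. Snhg6 was at 0.00198 without si-NC replicate 1 and 0.15 without si-circCpsf6 replicate 3, and at -0.33 without si-circCpsf6 replicate 1. The cause was not tested. The count of member rows apart in the lower direction, an alternative chosen after seeing the data, was 4 to 5 with 1 library left out. It was 5 without si-circCpsf6 replicate 1, where 18.9% of all tested genes were apart in that direction. The mean of at least 5 FPKM left Snhg3 and both Snhg4 rows untested.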
